A study of Mus musculus with 56 samples.

Results

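Male mice lacking Znrf3 in their steroid-producing cells were compared here with littermate controls at 6 weeks of age, by RNA sequencing of whole adrenal glands. The comparison holds 8 of the 56 libraries of the series, 4 per genotype, taken by their labels (library numbers 13 to 16 for the knockout, and 25, 31, 32 and 33 for the control). The conditional knockout (cKO) males are labelled SF1-Cre+; Znrf3 Fx/Fx, so that they carry a Cre transgene driven by SF1 regulatory sequence and 2 floxed Znrf3 alleles. Control males are labelled SF1-Cre negative, and their Znrf3 alleles are not given in the labels. All animals were C57BL/6J, and each library came from a separate mouse. Males of the same genotypes at 4 and at 9 weeks and females of the same genotypes at 6 weeks, each with 4 cKO and 4 control libraries, were used for the comparisons across age and sex. The study set out to follow the transcriptome of the Znrf3 cKO gland as it passes from overgrowth to regression.

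The adrenal cortex is an endocrine epithelium wrapped in a mesenchymal capsule, and it surrounds a medulla of catecholamine-producing chromaffin cells that arise from the neural crest. Capsule cells release R-spondin, which binds LGR receptors and draws the membrane E3 ubiquitin ligases ZNRF3 and RNF43 off the surface; these ligases otherwise remove Frizzled, the Wnt receptor. Wnt signalling is highest in the outermost zone, the zona glomerulosa, which makes aldosterone, and it is lower in the zona fasciculata, which makes corticosterone. SF1, encoded by Nr5a1, is made by cortical cells and by cells of the gonad, pituitary and hypothalamus, so the Cre is not confined to the adrenal. The medulla, vessels and blood-derived cells of the gland are not expected to recombine. Recombination was not measured here in any cell type, the capsule included. The gland was sequenced whole. In such bulk samples fewer cells of a type, less RNA per cell and a larger share of RNA from other cells cannot be told apart.

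The 4 cKO libraries held 12431963 to 17896510 counts assigned to genes, and the 4 control libraries 13943448 to 18316036. Cortical genes were abundant in every library, and of 5 kidney genes Umod, Nphs1 and Slc12a1 had 0 counts in all 8, while the list summed to at most 0.3 CPM in cKO and 0.2 CPM in control glands. Liver genes were found in cKO replicate 2 (Alb 0.149, 45.1, 0 and 0.078 CPM in cKO replicates 1 to 4). The adipocyte gene Adipoq was highest in cKO replicate 1 and control replicate 1 (4.03, 0.056, 0.394 and 0.078 CPM in cKO glands and 3.25, 0.312, 0.502 and 0.591 CPM in control glands). Mitochondrially encoded genes took 3.68% to 4.44% of the counts in cKO libraries and 5.16% to 6.02% in control libraries. The first principal component held 60.9% of the variance and separated the genotypes, and the next, with 9.7%, set cKO replicate 3 apart from the other 7 libraries. Library numbers also divide by genotype, so that within the 6-week groups a difference between the 2 number ranges and a difference between genotypes cannot be told apart. A fit with the number range as a covariate, which draws on the 4-week and 9-week males, called 1613 genes in place of 3435, and calls of named genes that ended in it are given with those genes.

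Znrf3 (chr11:5276324-5444847, GRCm38) had 42.8, 44.6, 40.1 and 34.3 CPM in cKO glands and 32.4, 27.4, 26.4 and 29.3 CPM in control glands (CPM are counts scaled to the library size, as adjusted by TMM). All cKO libraries lay above all control libraries, and the call was higher in cKO glands (log2 fold change 0.49 ± 0.13 SE, adjusted p = 0.0114, edgeR quasi-likelihood test with Benjamini-Hochberg adjustment, as are all adjusted p-values here). The count covers the whole gene, exons outside any deleted part included, so it does not check the label. With the number range as a covariate the adjusted p of Znrf3 was 0.23.

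Of 17086 genes tested, 3435 (20.1%) were called at an adjusted p under 0.05, 1399 of them higher in cKO glands (8.19%) and 2036 lower (11.9%). Changes of 2-fold or more were found for 351 called genes that were higher (2.05%) and for 1217 that were lower (7.12%). All 4 cKO libraries lay above all 4 control libraries for 1849 genes (10.8%) and below them for 2372 (13.9%), and the median log2 fold change over all genes was -0.01. The largest gains included genes of macrophages and osteoclasts. Atp6v0d2, a subunit of the vacuolar proton pump made by osteoclasts and fused macrophages, had 69.3, 74.3, 4.20 and 40.7 CPM in cKO glands and 0.053, 0.125, 0.143 and 0.131 CPM in control glands. Gpnmb, a lysosomal glycoprotein of lipid-loaded macrophages, had 618, 603, 44.6 and 248 CPM in cKO glands and 1.44, 1.06, 2.22 and 1.51 CPM in control glands. Both genes were lowest among cKO glands in replicate 3, which still lay above every control (log2 fold change 8.66 ± 1.06 SE, adjusted p = 1.94e-06 for Atp6v0d2, and log2 fold change 7.93 ± 0.96 SE, adjusted p = 1.77e-06 for Gpnmb). The control libraries of Atp6v0d2 rest on a few counts, so that the size of its fold change depends on the prior count.

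Cd5l, a macrophage protein that binds lipids, had 17.2, 21.1, 0.656 and 4.89 CPM in cKO glands and 0.213, 0, 0 and 0 CPM in control glands. Il1rn, the interleukin 1 receptor antagonist, had 5.75, 5.55, 1.38 and 5.36 CPM in cKO glands and 0.16, 0.375, 0 and 0.131 CPM in control glands. Clec4d, a C-type lectin receptor of myeloid cells, had 18.1, 12.9, 3.61 and 6.60 CPM in cKO glands and 0.16, 0.75, 0.43 and 0.723 CPM in control glands. In none of these did the groups overlap, and cKO replicate 3 was the lowest cKO library in all 3 (adjusted p = 0.000108 for Cd5l, 0.000618 for Il1rn and 3.69e-05 for Clec4d). Aldh1a1, a retinaldehyde dehydrogenase, rose as well (291, 309, 25.9 and 757 CPM in cKO glands and 17.3, 16.7, 18.7 and 9.59 CPM in control glands; log2 fold change 4.47 ± 0.82 SE, adjusted p = 0.00034), with a 10-fold or larger spread among the cKO glands. Wnt10b, a Wnt ligand, had 14.6, 90.4, 1.38 and 13.05 CPM in cKO glands and 0.319, 1.31, 0.287 and 0.197 CPM in control glands, with no overlap between groups and with cKO replicate 2 far above the other 3 (log2 fold change 5.80 ± 1.19 SE, adjusted p = 0.00103). Rpsa-ps10, a processed pseudogene of a ribosomal protein gene whose reads may be shared with its parent gene, had 4.55, 3.88, 149 and 269 CPM in cKO glands and 3.67, 2.62, 2.65 and 2.83 CPM in control glands (log2 fold change 5.16 ± 1.76 SE, adjusted p = 0.0404). It was high in only 2 of the 4 cKO glands. Its call ended with the number range as a covariate (adjusted p = 0.176) and without cKO replicate 3 or 4 or control replicate 1, 2, 3 or 4 (adjusted p = 0.0585 to 0.108). Leaving out 1 library moved other fold changes as well: without control replicate 1 that of Cd5l, 7.33 over all libraries, was 10.68. Without control replicate 2 that of Il1rn was 5.37, against 4.66 over all libraries. That of Aldh1a1 was 3.78 without cKO replicate 4, and that of Wnt10b 4.20 without cKO replicate 2 and 6.78 without control replicate 2.

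The deepest losses included genes of the medulla. Pnmt, which turns noradrenaline into adrenaline, had 6.49, 4.94, 1.38 and 1.32 CPM in cKO glands and 103, 279.9, 117 and 188 CPM in control glands, so that every cKO gland lay far below every control gland (log2 fold change -5.59 ± 0.67 SE, adjusted p = 1.52e-06). Vgf, a neuropeptide precursor, had 1.12, 0.722, 0.131 and 0.621 CPM in cKO glands and 3.35, 67.4, 9.90 and 8.21 CPM in control glands, again without overlap (log2 fold change -5.10 ± 0.80 SE, adjusted p = 5.43e-05); without control replicate 2 its log2 fold change was -3.44. Frmpd1, a scaffold protein gene, was even within both groups, at 1.12, 1.17, 0.984 and 0.932 CPM in cKO glands and 17.1, 15.7, 16.3 and 19.6 CPM in control glands (log2 fold change -4.02 ± 0.27 SE, adjusted p = 2.10e-09). Kcnip1, Epha10, Lrrc36, Actl6b, Dbpht2 and B4galnt4 completed the list of the deepest falls, with log2 fold changes of -4.73, -4.56, -4.39, -4.38, -4.11 and -4.03 and adjusted p-values of 1.72e-06, 5.02e-07, 8.09e-06, 6.04e-08, 3.23e-08 and 6.16e-09. Kcnip1 encodes a potassium channel-interacting protein, Epha10 an ephrin receptor, and Actl6b a subunit of the neuronal chromatin remodelling complex. The log2 fold change of Kcnip1 was -5.34 without cKO replicate 2, and that of Lrrc36 -4.99 without cKO replicate 1.

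**Figure D1:**
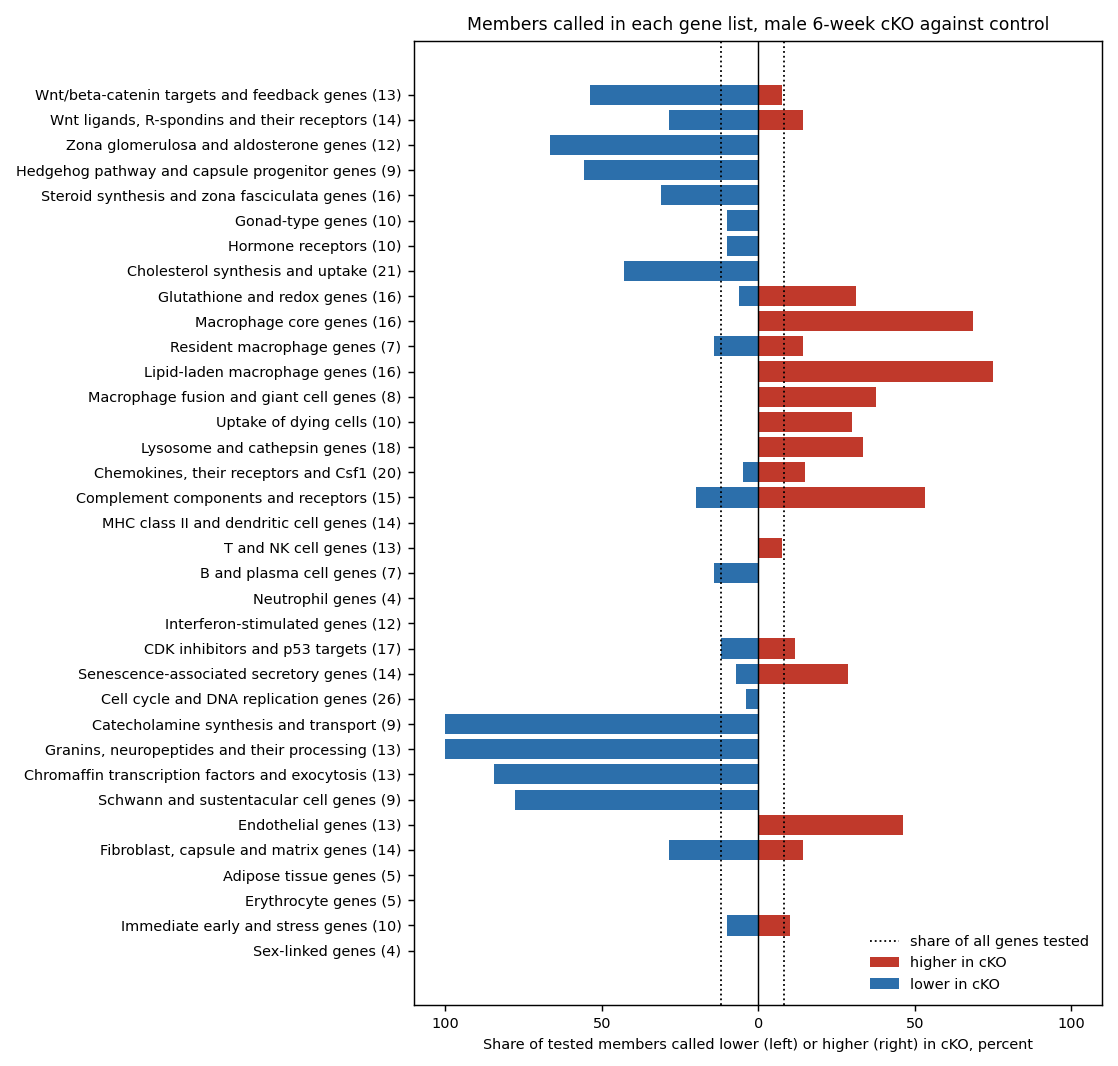
Share of the tested members of each gene list that were called higher (to the right) or lower (to the left) in male cKO glands than in control glands at 6 weeks, in percent, with 4 libraries per genotype. Dotted lines give the shares over all genes tested, 8.19% higher and 11.9% lower. All 13 granins and all 9 catecholamine genes were lower, while 12 of 16 lipid-laden macrophage genes and 11 of 16 core macrophage genes were higher.

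The targets and feedback genes of the Wnt pathway did not move one way. Of 13 tested, 7 were lower, 1 was higher and 5 were not called, with a median log2 fold change of -0.90. Of all genes, 11.9% were lower and 8.19% higher. Axin2, a scaffold of the beta-catenin destruction complex that is induced by the pathway, was the one that rose (117, 127, 90.8 and 127 CPM in cKO glands and 100.6, 64.7, 66.4 and 78 CPM in control glands; log2 fold change 0.58 ± 0.16 SE, adjusted p = 0.014). Its groups overlapped, since control replicate 1 lay above cKO replicate 3, and the call ended without control replicate 2 (adjusted p = 0.051). Lgr5, an R-spondin receptor (chr10:115450311-115587780), fell to 6.87, 3.77, 4.33 and 5.67 CPM in cKO glands, against 38, 41.1, 34.5 and 26.8 CPM in control glands, with a wide gap between the groups (log2 fold change -2.78 ± 0.27 SE, adjusted p = 6.14e-08). Apcdd1, a Wnt inhibitor of the plasma membrane, had 17.8, 20.4, 21.8 and 14.1 CPM in cKO glands and 57.7, 40.2, 52.3 and 61.8 CPM in control glands and was lower in every cKO gland (log2 fold change -1.51 ± 0.22 SE, adjusted p = 1.84e-05).

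Lef1, the transcription factor that beta-catenin binds, had 6.42, 6.49, 3.15 and 3.65 CPM in cKO glands and 13.2, 9.44, 10.3 and 15.6 CPM in control glands (log2 fold change -1.29 ± 0.22 SE, adjusted p = 0.000129). Nkd1, an inhibitor of Dishevelled, fell with a log2 fold change of -0.90 ± 0.17 (SE, adjusted p = 0.000577). Dkk3, a secreted Dickkopf relative, had one of -0.82 ± 0.14 (SE, adjusted p = 0.00012), and Ccnd1, a G1 cyclin, one of -0.97 ± 0.16 (SE, adjusted p = 7.29e-05). None of these 4 genes had overlapping groups. Rnf43, the paralog of Znrf3, had 5.45, 4.72, 3.48 and 2.56 CPM in cKO glands and 11.7, 8.69, 5.38 and 8.08 CPM in control glands (log2 fold change -1.06 ± 0.29 SE, adjusted p = 0.0109). Its groups overlapped, since cKO replicate 1 lay above control replicate 3, and the call ended without cKO replicate 4 (adjusted p = 0.0524) or control replicate 1 (adjusted p = 0.0619).

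Among 14 tested Wnt ligands, R-spondins and their receptors, 4 were lower and 2 higher, where 11.9% and 8.19% of all genes were. Rspo3, the R-spondin of the capsule (chr10:29452416-29535867), had 8.06, 11.04, 10.1 and 11.7 CPM in cKO glands and 62.1, 36.4, 42.5 and 42.5 CPM in control glands (log2 fold change -2.17 ± 0.20 SE, adjusted p = 3.06e-08). The highest cKO gland lay below the lowest control gland by more than 3-fold. Wnt2b, a Wnt of the capsule and the outer cortex, had 6.64, 6.49, 7.21 and 4.35 CPM in cKO glands and 18.9, 16.3, 10.5 and 19.3 CPM in control glands and was called lower (log2 fold change -1.39 ± 0.26 SE, adjusted p = 0.000475). Fzd1, a Frizzled receptor, had 34.1, 26.2, 36 and 30.1 CPM in cKO glands and 23.96, 21.7, 17.1 and 24.6 CPM in control glands. Wls, which carries Wnts to the surface, had 95.3, 92, 107 and 88.9 CPM in cKO glands and 85.5, 80.7, 74.1 and 84.8 CPM in control glands. Both were called higher, with no overlap (log2 fold change 0.53 ± 0.16 SE for Fzd1, adjusted p = 0.0232, and 0.24 ± 0.07 SE for Wls, adjusted p = 0.0244). With the number range as a covariate the calls of Wnt2b (adjusted p = 0.0658), Fzd1 (0.547) and Wls (0.0562) ended, and that of Rspo3 did not (7.52e-06); the call of Fzd1 also ended without control replicate 3 (adjusted p = 0.0536). With that covariate the list had none higher and 1 lower.

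**Figure D2:**
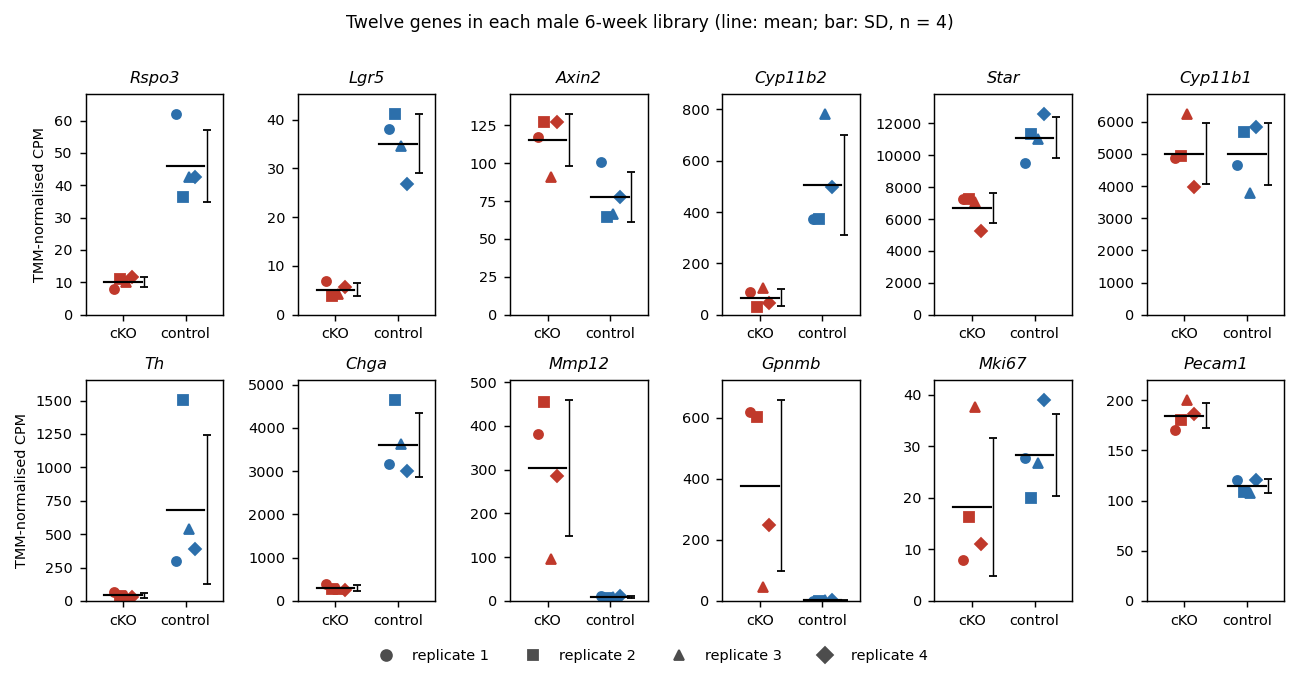
CPM, on a linear axis for each gene, of 12 genes in each of the 4 male cKO and 4 male control libraries at 6 weeks; points are libraries, horizontal lines are group means and bars their SD (n = 4). The groups stand apart for Rspo3, Lgr5, Cyp11b2, Th, Chga, Mmp12, Gpnmb and Pecam1, and for Star, which missed the threshold, while those of Axin2, Cyp11b1 and Mki67 overlap.

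Most genes of the zona glomerulosa fell. Of 12 tested, 8 were lower and none was higher, where 11.9% and 8.19% of all genes were. Their median log2 fold change was -0.67. Cyp11b2, the aldosterone synthase (chr15:74851010-74856318), had 89, 30.9, 103 and 44.7 CPM in cKO glands and 372, 373, 784 and 496 CPM in control glands (log2 fold change -2.92 ± 0.50 SE, adjusted p = 0.000161). Agtr1b, an angiotensin II receptor of this zone, had 4.93, 4.27, 6.56 and 4.27 CPM in cKO glands and 19.6, 23.2, 30.7 and 31.6 CPM in control glands (log2 fold change -2.39 ± 0.25 SE, adjusted p = 1.60e-07). Kcnk9, a potassium channel that helps to hold the resting potential of its cells, had 178, 147, 134 and 88.4 CPM in cKO glands and 593, 521, 510.1 and 387 CPM in control glands (log2 fold change -1.88 ± 0.21 SE, adjusted p = 7.04e-07). All cKO glands lay below all control glands for these 3 genes, although the cKO glands differed by over 3-fold among themselves for Cyp11b2.

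Vsnl1, a calcium sensor, had 27.5, 12.8, 28.5 and 11.4 CPM in cKO glands and 131, 61.1, 107 and 87.9 CPM in control glands (log2 fold change -2.27 ± 0.31 SE, adjusted p = 1.03e-05). Dab2, an endocytic adaptor used as a marker of the zone, had 287, 273, 276 and 243 CPM in cKO glands and 779.6, 488, 672 and 696 CPM in control glands (log2 fold change -1.29 ± 0.20 SE, adjusted p = 3.46e-05). Agtr1a, the other angiotensin II receptor, fell by less (log2 fold change -0.61 ± 0.14 SE, adjusted p = 0.00224). Smoc2, a matrix protein, and Atp2b3, a calcium pump, were also called lower, and both calls ended with the number range as a covariate (adjusted p = 0.121 for Smoc2 and 0.6 for Atp2b3). Atp2b3 was also lost without cKO replicate 2 or 4 or control replicate 1 (adjusted p = 0.053 to 0.0735). Cyp11b2 and Cyp11b1 are near-identical neighbours, and reads that match both may have been split between them or left out.

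Zona glomerulosa cells send Sonic hedgehog to the capsule, where Gli1 marks the responding cells. The ligand Shh had 78.8, 61.6, 65.1 and 117 CPM in cKO glands and 133, 92.9, 88.8 and 98.5 CPM in control glands and was not called (adjusted p = 0.337), with cKO replicate 4 above all controls but 1. Of the 9 tested genes of hedgehog signalling and the capsule, 5 were lower and none was higher (median log2 fold change -0.62). Of all genes, 11.9% were lower and 8.19% higher. Gli1 had 7.69, 6.38, 6.95 and 9.09 CPM in cKO glands and 25.5, 10.9, 16.5 and 21.5 CPM in control glands (log2 fold change -1.31 ± 0.26 SE, adjusted p = 0.000676). Hhip, a hedgehog decoy receptor, and Nr2f2, a nuclear receptor of capsule cells, were lower in every cKO gland (log2 fold change -0.96 ± 0.21 SE, adjusted p = 0.0023, and -0.62 ± 0.11 SE, adjusted p = 0.00017). The call of Hhip ended with the number range as a covariate (adjusted p = 0.223).

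The list of 16 tested steroidogenic genes had 5 called lower, where 11.9% of all genes were, and none called higher. Its median log2 fold change was -0.30. The count fell to 1 with the number range as a covariate and to between 1 and 4 when 1 of the 8 libraries was left out. Star, which brings cholesterol into the mitochondrion, had 7269, 7231, 7036 and 5276 CPM in cKO glands and 9483, 11306, 11010.1 and 12608 CPM in control glands. All cKO glands lay below all control glands, yet the test missed the threshold (log2 fold change -0.73 ± 0.26 SE, adjusted p = 0.0503). Star was called lower in a fit of only the libraries compared. Cyp11a1, the side-chain cleavage enzyme, had 6798, 7687, 7666 and 5652 CPM in cKO glands and 6374, 7923, 5513 and 7034 CPM in control glands. Cyp11b1, the 11-beta-hydroxylase of the fasciculata, had 4888, 4931, 6255 and 3965 CPM in cKO glands and 4657, 5692, 3777 and 5837 CPM in control glands. The groups of both overlapped and their log2 fold changes were 0.05 ± 0.18 and 0.01 ± 0.21 (SE; adjusted p = 0.882 and 0.99). Nr5a1, the gene of SF1, also overlapped between groups (662, 938, 705 and 636 CPM in cKO glands and 509, 533, 779 and 784 CPM in control glands; adjusted p = 0.716).

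Cyp21a1, the 21-hydroxylase, had 7909, 8944, 11496 and 7588 CPM in cKO glands and 11047, 15885, 14343 and 17137 CPM in control glands and was called lower (log2 fold change -0.70 ± 0.18 SE, adjusted p = 0.00611), with cKO replicate 3 above control replicate 1. Mc2r, the ACTH receptor, was called lower as well (log2 fold change -0.53 ± 0.16 SE, adjusted p = 0.0184). With the number range as a covariate both calls ended (adjusted p = 0.0569 for Cyp21a1 and 0.0827 for Mc2r), and that of Mc2r also ended without cKO replicate 1 or 4 or control replicate 2 or 4 (adjusted p = 0.0557 to 0.0921). Akr1c18, the marker of the X-zone, which regresses in males at puberty, was at or near 0 in both groups (0, 0, 0.066 and 0.078 CPM in cKO glands and 0.319, 0, 0 and 0.197 CPM in control glands).

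Cholesterol synthesis and uptake genes gave 9 lower and 0 higher of 21 tested, where 11.9% and 8.19% of all genes were. Their median log2 fold change was -0.46. Dhcr7, which makes cholesterol in the last step of synthesis, had 259, 316, 241 and 134 CPM in cKO glands and 389, 586, 487 and 642 CPM in control glands and did not overlap (log2 fold change -1.15 ± 0.29 SE, adjusted p = 0.00602). Nsdhl, a sterol dehydrogenase, was lower by a small step in every cKO gland (21.6, 21.6, 21.8 and 20.8 CPM in cKO glands and 26.8, 31.5, 27.8 and 25.8 CPM in control glands; log2 fold change -0.38 ± 0.09 SE, adjusted p = 0.00346). Hsd17b7, which acts in the same pathway, had 3.13, 3.44, 3.54 and 3.81 CPM in cKO glands and 6.12, 5.999, 8.75 and 8.48 CPM in control glands (log2 fold change -1.07 ± 0.29 SE, adjusted p = 0.0112). The list's count of lower genes fell to 3 with the number range as a covariate and ranged from 3 to 11 with 1 library left out. Hsd17b7 lost its call with that covariate (adjusted p = 0.23). Nsdhl lost its call when cKO replicate 3 and control replicate 2 were left out together.

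Genes of the medulla were lower in every list that marks it. All 9 catecholamine genes (median log2 fold change -2.81) and all 13 granin and peptide genes (-3.45) were called lower, as were 11 of 13 chromaffin transcription factor and exocytosis genes (-2.82), against 11.9% of all genes. Summed over the 13 granin genes, the level was 719.6 to 1249 CPM in cKO glands and 7353 to 14269.7 CPM in control glands. Chga, chromogranin A (chr12:102554969-102565028), had 401, 286, 281 and 254 CPM in cKO glands and 3153, 4645, 3620.2 and 3013 CPM in control glands (log2 fold change -3.56 ± 0.24 SE, adjusted p = 2.40e-09). Chgb, chromogranin B, had 588, 357, 405 and 308 CPM in cKO glands and 3588, 7554, 4019 and 3091 CPM in control glands (log2 fold change -3.46 ± 0.29 SE, adjusted p = 1.36e-08). The groups of both genes lay far apart, with cKO replicate 1 the highest cKO gland and control replicate 2 the highest control gland.

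Th, tyrosine hydroxylase (chr7:142892752-142931128), which makes the first step of catecholamine synthesis, had 64.7, 40.2, 35.5 and 27.1 CPM in cKO glands and 297, 1505, 539 and 388 CPM in control glands (log2 fold change -4.03 ± 0.43 SE, adjusted p = 2.57e-07). Dbh, which makes noradrenaline, had 106, 66.4, 63.9 and 53.6 CPM in cKO glands and 522, 1034, 592 and 491 CPM in control glands (log2 fold change -3.19 ± 0.28 SE, adjusted p = 1.77e-08). Slc18a1, the transporter that loads catecholamines into granules, had 7.69, 5.44, 5.12 and 4.04 CPM in cKO glands and 42.3, 50.7, 48.5 and 49 CPM in control glands (log2 fold change -3.09 ± 0.22 SE, adjusted p = 2.40e-09). No cKO gland reached the level of any control gland in these 3 genes. Without control replicate 2 the log2 fold change of Th was -3.27. That library stood above the other controls for Th and Dbh and was the highest control library in 8 of the 9 catecholamine genes and 10 of the 13 granin genes.

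Gch1, which makes the cofactor of tyrosine hydroxylase, and Cyb561, a granule cytochrome, fell by less (log2 fold change -0.81 ± 0.20 SE, adjusted p = 0.0045, and -0.83 ± 0.13 SE, adjusted p = 5.14e-05). Among the transcription factors of chromaffin cells, Phox2a had 9.18, 5.83, 5.58 and 4.04 CPM in cKO glands and 46.9, 63.1, 50.1 and 40.8 CPM in control glands (log2 fold change -3.03 ± 0.24 SE, adjusted p = 6.16e-09). Gata3 had 3.51, 2.44, 2.69 and 2.49 CPM in cKO glands and 29.4, 35.9, 29.3 and 20.2 CPM in control glands (log2 fold change -3.37 ± 0.26 SE, adjusted p = 4.41e-09). Hand2, Gata2 and Insm1 were lower too (log2 fold changes -3.00, -1.96 and -2.82, adjusted p = 1.02e-08, 6.03e-09 and 4.08e-08). Among exocytosis genes, Syp, a synaptic vesicle protein, had 12.3, 10.4, 9.25 and 8.16 CPM in cKO glands and 68.1, 75.2, 67 and 56.2 CPM in control glands (log2 fold change -2.73 ± 0.19 SE, adjusted p = 2.40e-09). Snap25 and Syt1, parts of the release machinery, had log2 fold changes of -2.82 and -2.89 (adjusted p = 1.71e-08 and 1.71e-08). In all 8 of these genes every cKO gland lay below every control gland.

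Since genes of the medulla moved together, the 250 bases before their starts were searched on both strands for TGACGTCA, the palindrome bound by the cAMP-responsive factor CREB. It was present for Chgb, Pcsk1, Scg2 and Th, 4 of the 23 medulla genes with a promoter sequence (17.4%), against 478 of 27025 promoters (1.77%), 2.88% of those of the genes tested and 3.12% of those of the called genes that fell by 2-fold or more; it contains the shorter motif TGACG, found for 12 of the 23 (52.2%), in 19.8% of all promoters and in 28.7% of those of the genes tested. It was 1 of 8 motifs searched. Scg2, secretogranin II, lies outside the rule for named genes and was chosen after its values were seen (161, 112, 119 and 105 CPM in cKO glands and 893, 990.1, 926 and 765 CPM in control glands; log2 fold change -2.85 ± 0.29 SE, adjusted p = 1.60e-07). Pcsk1, the prohormone convertase that cuts the granins, had 4.63, 1.499, 2.49 and 2.49 CPM in cKO glands and 23.2, 51.9, 38.4 and 27.4 CPM in control glands (log2 fold change -3.68 ± 0.35 SE, adjusted p = 6.22e-08). The 4 matches start 72, 45, 78 and 68 bases before the gene starts of Chgb, Th, Pcsk1 and Scg2. They are shown because they are the medulla promoters that hold the whole palindrome, in capitals, within the 120 bases before the start (RefSeq, GRCm38.p6, 5′ to 3′ on the strand of the gene). The match is a description of the letters, and binding was not measured. The starts are those of RefSeq and can differ from the gene spans given here, which come from GENCODE. For Th the window lies within that span. The windows are chr2:132781522-132781641, plus strand, for Chgb; chr7:142899996-142900115, minus strand, for Th; chr13:75089737-75089856, plus strand, for Pcsk1; and chr1:79440027-79440146, minus strand, for Scg2.
Chgb: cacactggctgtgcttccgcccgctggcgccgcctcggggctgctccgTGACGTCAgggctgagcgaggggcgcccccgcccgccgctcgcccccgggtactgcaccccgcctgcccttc
Th: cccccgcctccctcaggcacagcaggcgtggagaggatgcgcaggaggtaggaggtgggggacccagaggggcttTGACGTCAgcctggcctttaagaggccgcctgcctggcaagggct
Pcsk1: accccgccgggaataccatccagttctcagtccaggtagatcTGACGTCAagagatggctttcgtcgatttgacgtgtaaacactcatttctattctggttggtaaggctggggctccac
Scg2: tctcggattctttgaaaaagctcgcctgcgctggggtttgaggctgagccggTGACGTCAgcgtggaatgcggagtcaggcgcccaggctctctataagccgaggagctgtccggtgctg

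Genes of Schwann and sustentacular cells, the glia that accompany chromaffin cells and nerve fibres, were lower for 7 of 9 tested, where 11.9% of all genes were. Their median log2 fold change was -1.45. S100b, a calcium-binding protein of sustentacular cells, had 0.299, 0.333, 0.459 and 0.466 CPM in cKO glands and 3.09, 1.31, 2.65 and 1.91 CPM in control glands (log2 fold change -2.51 ± 0.38 SE, adjusted p = 3.61e-05). Gfra3, a receptor of the GDNF family, had 0.896, 0.389, 0.656 and 0.854 CPM in cKO glands and 4.63, 4.81, 3.80 and 3.35 CPM in control glands (log2 fold change -2.59 ± 0.35 SE, adjusted p = 8.11e-06). Cdh19, a glial cadherin, and Erbb3, the neuregulin receptor, fell without overlap (log2 fold change -2.36 ± 0.33 SE, adjusted p = 1.28e-05, and -1.18 ± 0.20 SE, adjusted p = 0.000164). Sox10, the glial transcription factor, was called lower, but not with the number range as a covariate (adjusted p = 0.0767), under which 4 genes of the list were lower. Mbp, a myelin gene, was not called (0.42 ± 0.20 SE, adjusted p = 0.154).

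Most macrophage genes rose in cKO glands, and they were lowest in cKO replicate 3. Of 16 core macrophage genes tested, 11 were higher and none was lower (median log2 fold change 1.22, against 8.19% of all genes higher), and their summed level was 562 to 1538 CPM in cKO glands and 296 to 326 CPM in control glands. Lyz2, lysozyme, had 858, 607, 201 and 479 CPM in cKO glands and 75.8, 84.2, 71.4 and 79.8 CPM in control glands (log2 fold change 2.79 ± 0.46 SE, adjusted p = 8.72e-05). Cd68, a lysosomal membrane protein of macrophages, had 131, 150.4, 47.3 and 109 CPM in cKO glands and 21.4, 20.9, 24.6 and 19.9 CPM in control glands (log2 fold change 2.33 ± 0.40 SE, adjusted p = 0.000139). Tyrobp, an adaptor of myeloid receptors, had 71.5, 73.6, 28.9 and 57.9 CPM in cKO glands and 15.1, 12.6, 20.9 and 15.8 CPM in control glands (log2 fold change 1.85 ± 0.37 SE, adjusted p = 0.000876). In each of the 3 genes the lowest cKO gland, replicate 3, lay above the highest control gland.

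Spi1, which encodes the myeloid transcription factor PU.1, had 33.7, 37.9, 17.9 and 30.9 CPM in cKO glands and 10.97, 12.4, 14.9 and 10.4 CPM in control glands (log2 fold change 1.31 ± 0.29 SE, adjusted p = 0.00243). Ms4a7, a membrane protein of macrophages, had 37.5, 43, 19.9 and 31.1 CPM in cKO glands and 11.4, 10.8, 11.9 and 9.002 CPM in control glands (log2 fold change 1.61 ± 0.31 SE, adjusted p = 0.000506). Adgre1, the F4/80 antigen, was also above all controls, at 22.8, 15.4, 18.4 and 15.4 CPM in cKO glands and 8.95, 10.7, 8.68 and 8.61 CPM in control glands (log2 fold change 0.96 ± 0.34 SE, adjusted p = 0.0459). Its call ended with the number range as a covariate (adjusted p = 0.337) and without cKO replicate 1 or 3 or control replicate 1, 2, 3 or 4 (adjusted p = 0.0611 to 0.11). Replicate 3 was the lowest of the cKO libraries for 13 of the 16 core genes.

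Lipid-laden macrophages take up and store lipid debris. Of 16 tested genes linked to them, 12 were higher and none lower, where 8.19% and 11.9% of all genes were. The median log2 fold change of the list was 1.08. Some of the 12 were also abundant in control glands, where Plin2 and Cd63 averaged 246 and 300 CPM and Cd68 averaged 21.7 CPM. The cell source of each gene was not tested. Mmp12, the macrophage elastase (chr9:7344381-7369499), had 381, 456, 96.2 and 285 CPM in cKO glands and 10.6, 6.81, 9.32 and 11.04 CPM in control glands (log2 fold change 5.01 ± 0.53 SE, adjusted p = 2.44e-07). Lgals3, galectin 3, had 395, 488, 107 and 295 CPM in cKO glands and 18.4, 15.2, 20.4 and 14.8 CPM in control glands (log2 fold change 4.22 ± 0.54 SE, adjusted p = 3.34e-06). Fabp5, a fatty acid-binding protein, had 151, 177, 34.8 and 91.8 CPM in cKO glands and 13.7, 9.94, 14.6 and 10.6 CPM in control glands (log2 fold change 3.22 ± 0.49 SE, adjusted p = 3.83e-05). Trem2, a receptor for lipids and cell debris, had 51.3, 56.3, 14.4 and 43.4 CPM in cKO glands and 6.55, 5.94, 8.03 and 7.69 CPM in control glands (log2 fold change 2.55 ± 0.49 SE, adjusted p = 0.000564). Each of these cKO groups spans 3-fold or more, with replicate 3 at the bottom, and none reaches down to the controls. Abcg1, which exports cholesterol, rose by a log2 fold change of 0.93 ± 0.24 (SE, adjusted p = 0.00763).

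The 250 bases before the starts of the core, lipid-laden and fusion genes were searched on both strands for GAGGAAG, a sequence that PU.1 binds, and 10 of the 26 genes with a promoter sequence held it (38.5%), against 12.0% of all promoters, 13.1% of those of the genes tested and 19.4% of those of the called genes that rose by 2-fold or more. The AP-1 motif TGANTCA was found for 6 of the 26 (23.1%), against 7.82% of all promoters and 5.72% of those of the genes tested. Both motifs were among the 8 searched. GAGGAAG was also found for 3 of the 10 steroidogenic genes with a promoter sequence (30.0%). The core, lipid-laden and fusion lists, with or without the motif, had 11 of 16, 12 of 16 and 3 of 8 tested genes called higher. Of all genes, 8.19% were. Of the 10 genes with the PU.1 motif, 9 were tested and 5 were called higher. Mmp12 and Trem2 are shown because they had the largest rises of those 5; Gpnmb and Lgals3, which also rose, have a promoter sequence without the motif. Each holds the motif in its reverse complement, in capitals, starting 87 bases before the start of Mmp12 and 41 before that of Trem2 (RefSeq, GRCm38.p6, 5′ to 3′ on the strand of the gene). The windows are chr9:7344277-7344396, plus strand, for Mmp12, and chr17:48346281-48346400, plus strand, for Trem2. Here too no binding was measured.
Mmp12: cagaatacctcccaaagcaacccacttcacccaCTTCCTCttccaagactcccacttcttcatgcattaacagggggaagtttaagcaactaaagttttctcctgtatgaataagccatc
Trem2: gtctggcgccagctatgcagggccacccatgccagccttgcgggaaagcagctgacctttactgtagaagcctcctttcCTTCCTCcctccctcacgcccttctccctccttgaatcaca

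Macrophage fusion and bone-resorption genes split. Atp6v0d2 apart, Acp5, the tartrate-resistant acid phosphatase, had 64, 61.2, 21.9 and 39.6 CPM in cKO glands and 10.2, 10.6, 15.3 and 9.53 CPM in control glands (log2 fold change 2.04 ± 0.38 SE, adjusted p = 0.000374). Adam8, a metalloprotease of fusing cells, had 46.2, 42, 9.84 and 31.1 CPM in cKO glands and 4.53, 6.25, 7.46 and 4.99 CPM in control glands (log2 fold change 2.48 ± 0.39 SE, adjusted p = 6.25e-05). The other 5 tested genes of the list were not called; among them Dcstamp and Ocstamp, which drive cell fusion, stayed under 2.1 CPM in all 8 libraries (adjusted p = 0.111 and 0.409). Ctsk, the osteoclast cathepsin, had 5.67, 7.27, 7.08 and 10.4 CPM in cKO glands and 10.01, 7.56, 7.31 and 6.04 CPM in control glands, with overlapping groups (adjusted p = 0.951).

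Of 18 lysosomal genes, 6 were higher and none lower, where 8.19% and 11.9% of all genes were, with a median log2 fold change of 0.35. Ctss, a cathepsin of antigen-presenting cells, had 413, 427, 134 and 211 CPM in cKO glands and 70.6, 74.3, 81.5 and 61.8 CPM in control glands (log2 fold change 2.04 ± 0.41 SE, adjusted p = 0.000841). Ctsd, an aspartic protease, had 1303, 1246, 584 and 913 CPM in cKO glands and 433, 592, 508 and 481 CPM in control glands (log2 fold change 1.01 ± 0.27 SE, adjusted p = 0.00923). For Ctsd cKO replicate 3 fell within the range of the controls. The list's count ranged from 4 to 8 with 1 library left out and was 10 without cKO replicate 3 and control replicate 2. Of 10 efferocytosis genes, which handle dying cells, 3 were higher, where 8.19% of all genes were. Mfge8, a bridging protein, had 458, 452, 359.9 and 375 CPM in cKO glands and 253, 254, 235 and 246 CPM in control glands (log2 fold change 0.74 ± 0.18 SE, adjusted p = 0.00523). The other 2 were Pros1, a ligand of TAM receptors (0.37 ± 0.07 SE, adjusted p = 0.000742), and Stab1, a scavenger receptor (0.42 ± 0.12 SE, adjusted p = 0.0176). Gas6, the other TAM ligand, and Mertk, a TAM receptor, were not called (adjusted p = 0.934 and 0.0945). Without cKO replicate 3 Mertk was called higher (adjusted p = 0.0301). With the number range as a covariate Mertk was called higher (adjusted p = 0.0176), while Mfge8 (0.0666) and Stab1 (0.132) were not called.

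Markers of resident tissue macrophages gave 1 higher and 1 lower of 7 tested, where 8.19% and 11.9% of all genes were. Mrc1, the mannose receptor, had 43.2, 43.2, 34.2 and 39.4 CPM in cKO glands and 22.9, 22.9, 24.95 and 25.4 CPM in control glands (log2 fold change 0.73 ± 0.20 SE, adjusted p = 0.0114). Cd163, the haemoglobin scavenger receptor, fell to 0.299, 0.5, 0.918 and 0.699 CPM in cKO glands, against 2.56, 1.06, 2.01 and 1.31 CPM in control glands, without overlap (log2 fold change -1.52 ± 0.38 SE, adjusted p = 0.00561). Both calls ended with the number range as a covariate (adjusted p = 0.152 for Mrc1 and 0.158 for Cd163). For Cx3cr1 every cKO gland lay above every control gland, yet it was not called (log2 fold change 0.55 ± 0.23 SE, adjusted p = 0.104). Apart from Mrc1 and Cx3cr1, the tested genes of the list stayed under 5 CPM in all 8 libraries. Whether resident markers rose as a group therefore rests mostly on low genes and cannot be decided here. Timd4, a marker of long-lived resident macrophages, was too low to test, at 0.149, 0.389, 0.066 and 1.24 CPM in cKO glands and 0.053, 0.187, 0.359 and 0.131 CPM in control glands.

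Complement genes gave 8 higher and 3 lower of 15, against 8.19% and 11.9% of all genes. C1qb and C1qc, chains of C1q that macrophages make, had log2 fold changes of 1.19 ± 0.24 and 1.14 ± 0.24 (SE; adjusted p = 0.000742 and 0.00138). The receptors C3ar1 and C5ar1 had 1.32 ± 0.29 and 1.26 ± 0.27 (SE; adjusted p = 0.00192 and 0.00153). Cd55, a membrane inhibitor of complement, fell to 3.66, 2.17, 3.08 and 2.17 CPM in cKO glands, against 29.4, 20.9, 27.9 and 18 CPM in control glands (log2 fold change -3.12 ± 0.28 SE, adjusted p = 2.62e-08). C4b, a complement component whose locus holds a near-identical copy, had 40.9, 65.6, 99.4 and 27.5 CPM in cKO glands and 86.3, 192, 136 and 167 CPM in control glands (log2 fold change -1.31 ± 0.30 SE, adjusted p = 0.00266). Only cKO replicate 3 reached into the range of the controls for C4b.

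Among 20 tested chemokines and myeloid growth factor genes, 3 were higher and 1 was lower, where 8.19% and 11.9% of all genes were. Ccl6, a macrophage chemokine, had 13.96, 11.99, 6.10 and 12.1 CPM in cKO glands and 3.89, 5.31, 3.94 and 5.12 CPM in control glands (log2 fold change 1.27 ± 0.29 SE, adjusted p = 0.00269). Cxcl16 had 47.6, 40.4, 33.98 and 42.5 CPM in cKO glands and 24.8, 26, 29.9 and 19.97 CPM in control glands (log2 fold change 0.71 ± 0.17 SE, adjusted p = 0.0044). Cxcl12, a stromal chemokine, had 44.7, 38.3, 20.4 and 38.7 CPM in cKO glands and 72.1, 57.3, 64.8 and 52.2 CPM in control glands and was called lower (log2 fold change -0.80 ± 0.22 SE, adjusted p = 0.0108). The call ended with the number range as a covariate (adjusted p = 0.149) and without cKO replicate 3 (adjusted p = 0.053) or control replicate 1 (adjusted p = 0.0501). Ccl2, the monocyte attractant, and Csf1, the macrophage growth factor, were not called (0.78 ± 0.53 SE, adjusted p = 0.33, and 0.23 ± 0.10 SE, adjusted p = 0.134). Csf1 was called higher without cKO replicate 2 (adjusted p = 0.0438).

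Genes of other blood-derived cells gave few calls. None of 14 MHC class II and dendritic cell genes, 12 interferon-induced genes or 4 neutrophil genes was called. Of 13 T and NK cell genes, 1 was higher, where 8.19% of all genes were. This was Cd4, which mouse macrophages can also express, with 4.48, 7.99, 2.62 and 6.37 CPM in cKO glands and 1.597, 1.44, 2.08 and 1.12 CPM in control glands (log2 fold change 1.79 ± 0.53 SE, adjusted p = 0.0197). The call ended without cKO replicate 2 (adjusted p = 0.0639) or control replicate 4 (adjusted p = 0.0601). Cd3d and Cd3g, chains of the T cell receptor complex, stayed under 1 CPM in all 8 libraries. Of 7 B and plasma cell genes, 1 was lower, where 11.9% of all genes were. It was Mzb1, a gene of plasma cells, with 0.672, 0.833, 0.984 and 1.71 CPM in cKO glands and 2.02, 1.94, 2.51 and 2.04 CPM in control glands (log2 fold change -1.02 ± 0.28 SE, adjusted p = 0.0114). Its call ended with the number range as a covariate (adjusted p = 0.0841) and without cKO replicate 1 (adjusted p = 0.0567) or cKO replicate 2 (adjusted p = 0.0518). None of the 5 erythrocyte, 5 adipocyte and 3 liver genes tested was called.

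**Figure D3:**
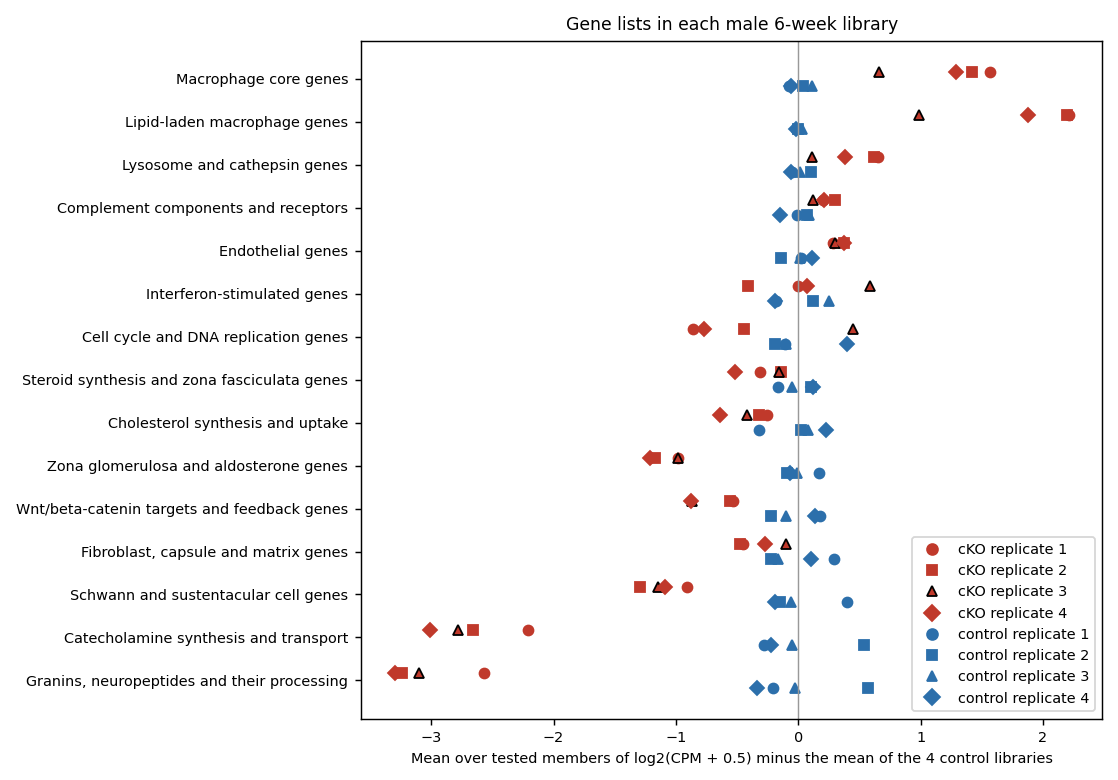
Mean deviation of 15 gene lists from the control mean in each of the 4 male cKO and 4 male control libraries at 6 weeks, on the scale of log2(CPM + 0.5); each point is a library. The medulla lists lie far below 0 in all 4 cKO libraries, the core and lipid-laden macrophage lists lie above 0 in all 4 and are lowest in replicate 3, and the cell cycle list is highest in replicate 3.

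Of 13 endothelial genes, 6 were called higher and none lower, where 8.19% and 11.9% of all genes were. Their median log2 fold change was 0.23. Pecam1, a junctional protein of endothelial cells (chr11:106654217-106750628), had 171, 181, 200.4 and 187 CPM in cKO glands and 120.4, 109, 107 and 120.4 CPM in control glands (log2 fold change 0.69 ± 0.13 SE, adjusted p = 0.000318). Plvap, which forms the diaphragms of fenestrated capillaries, had 489, 609, 413 and 648 CPM in cKO glands and 279.8, 262, 331 and 302 CPM in control glands (log2 fold change 0.88 ± 0.17 SE, adjusted p = 0.00048). Erg, an endothelial transcription factor, had 32.1, 31.4, 37.2 and 39.6 CPM in cKO glands and 25.8, 17.9, 23.7 and 19.4 CPM in control glands (log2 fold change 0.69 ± 0.11 SE, adjusted p = 8.86e-05). The groups of these 3 genes did not overlap. Tie1, Esam and Cdh5, a receptor and 2 junctional proteins, were called higher (log2 fold change 0.43 ± 0.11, 0.43 ± 0.10 and 0.40 ± 0.12 SE, adjusted p = 0.00758, 0.00233 and 0.019). With the number range as a covariate the calls of Tie1 (0.229), Esam (0.22) and Cdh5 (0.185) ended, and that of Cdh5 also ended without control replicate 2 (adjusted p = 0.0714). Vegfa, the main growth factor of these cells, was lower in cKO glands (692, 651, 561 and 554 CPM in cKO glands and 796, 1012, 1014 and 984 CPM in control glands; log2 fold change -0.63 ± 0.17 SE, adjusted p = 0.00804).

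Of 14 stromal and matrix genes, 4 were lower and 2 higher, where 11.9% and 8.19% of all genes were. Lum, a collagen-binding proteoglycan, had 10.5, 10.1, 10.5 and 10.3 CPM in cKO glands and 37.4, 20.4, 21.4 and 28.8 CPM in control glands (log2 fold change -1.39 ± 0.20 SE, adjusted p = 2.00e-05). Postn, periostin, had 37.5, 38.8, 64.7 and 45.2 CPM in cKO glands and 150.4, 83.8, 104 and 110.1 CPM in control glands (log2 fold change -1.27 ± 0.20 SE, adjusted p = 5.15e-05). Fbln1, fibulin 1, had 12.3, 11.6, 16.99 and 13.2 CPM in cKO glands and 40.5, 24.7, 29.97 and 33.9 CPM in control glands (log2 fold change -1.26 ± 0.21 SE, adjusted p = 0.000117). Every cKO gland was below every control gland for these 3 genes, and for Dcn, decorin, as well (-0.84 ± 0.19 SE, adjusted p = 0.00247), whose call ended with the number range as a covariate (adjusted p = 0.118). Col4a2, a basement membrane collagen, and Pdgfrb, a receptor of pericytes, were called higher (adjusted p = 0.0246 and 0.0401), and neither was with that covariate (adjusted p = 0.211 and 0.263). Those 2 calls also ended without single libraries: Col4a2 without cKO replicate 3 or control replicate 2 or 3 (adjusted p = 0.0514 to 0.053), and Pdgfrb without cKO replicate 2 or control replicate 2, 3 or 4 (adjusted p = 0.0513 to 0.0829).

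Proliferation genes depended on 1 library. Of 26 cell cycle genes, 1 was lower and none was higher (median log2 fold change -0.31), where 11.9% and 8.19% of all genes were. Without cKO replicate 3, which was the highest cKO library for 26 of the 26, 7 were lower. Mki67, a marker of cycling cells, had 7.99, 16.3, 37.7 and 11.03 CPM in cKO glands and 27.7, 19.9, 26.8 and 39 CPM in control glands, with overlapping groups (log2 fold change -0.63 ± 0.40 SE, adjusted p = 0.3). It was called lower without cKO replicate 3 (adjusted p = 0.0245). The 1 gene called, Ccne1, cyclin E1, had 0.821, 1.78, 4.13 and 1.398 CPM in cKO glands and 2.82, 5.19, 4.73 and 5.39 CPM in control glands (adjusted p = 0.0487). This call ended with the number range as a covariate (adjusted p = 0.422) and without cKO replicate 1, 2 or 4 or control replicate 2, 3 or 4 (adjusted p = 0.0952 to 0.161). Replicate 3 was also the highest cKO library for 12 of 12 interferon-induced genes and for all 5 erythrocyte genes. Hbb-bs, a beta globin gene among them, had 83.2, 58.7, 183 and 72.5 CPM in cKO glands and 69.4, 60.2, 75.6 and 81.1 CPM in control glands. Whether these bear on each other was not tested.

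The series title names senescence, a stable arrest of the cell cycle that is maintained by the inhibitors p16 and p21 and accompanied by secreted factors. Cdkn1a, the gene of p21, had 21.6, 17.98, 28.01 and 16.3 CPM in cKO glands and 25.7, 24.4, 24.4 and 23.7 CPM in control glands. Cdkn2a, the gene of p16 and p19ARF, had 1.64, 4.38, 2.49 and 2.56 CPM in cKO glands and 2.77, 1.81, 2.80 and 3.22 CPM in control glands. The groups of both overlapped (adjusted p = 0.554 and 0.902). Among 17 CDK inhibitor and p53 target genes 2 were higher and 2 lower, where 8.19% of all genes were higher and 11.9% lower. None was higher and 1 was lower with the number range as a covariate. Btg2, an antiproliferative p53 target, had 26.7, 35.3, 29.7 and 30.2 CPM in cKO glands and 57.6, 54.4, 54.1 and 43.7 CPM in control glands and had the smallest p of them (log2 fold change -0.78 ± 0.15 SE, adjusted p = 0.000634). Gdf15, a stress-induced secreted factor, had 19.3, 10.9, 6.69 and 12.3 CPM in cKO glands and 3.46, 5.87, 5.59 and 3.48 CPM in control glands (log2 fold change 1.41 ± 0.40 SE, adjusted p = 0.0136). That call ended with the number range as a covariate (adjusted p = 0.186) and without cKO replicate 1 (adjusted p = 0.0589).

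Of 14 tested secreted factors linked to senescence, 4 were higher and 1, Vegfa, was lower, where 8.19% and 11.9% of all genes were. Plau, the urokinase plasminogen activator, had 41.1, 41.1, 28.99 and 46.9 CPM in cKO glands and 11.3, 9.06, 13.7 and 12.8 CPM in control glands (log2 fold change 1.75 ± 0.23 SE, adjusted p = 5.50e-06). Mmp13, a collagenase, had 11.7, 11.04, 14.6 and 11.5 CPM in cKO glands and 4.95, 6.94, 8.10 and 5.12 CPM in control glands (log2 fold change 0.96 ± 0.22 SE, adjusted p = 0.00226). Il1a, interleukin 1 alpha, had 2.61, 2.17, 0.59 and 2.17 CPM in cKO glands and 0.106, 0.062, 0.43 and 0.197 CPM in control glands, values that rest on few counts (log2 fold change 3.26 ± 0.71 SE, adjusted p = 0.00185; log2 fold change 3.94 without control replicate 3). These 3 genes did not overlap between groups. The remaining gene called higher, Plaur, the receptor of urokinase, overlapped (16.9, 22.1, 8.46 and 16 CPM in cKO glands and 8.63, 6.75, 10.1 and 11.04 CPM in control glands; adjusted p = 0.0429). This call ended without cKO replicate 1, 2 or 4 or control replicate 1 or 2 (adjusted p = 0.0592 to 0.14). Il6 was too low to test, at 0.066 CPM or less in all 8 libraries.

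Genes of glutathione and redox metabolism gave 5 higher and 1 lower of 16, against 8.19% and 11.9% of all genes, and 3 higher and none lower with the number range as a covariate. Gstm1, a glutathione transferase of a family of close paralogs, had 1080.2, 1031, 810.2 and 1209 CPM in cKO glands and 535, 482, 523 and 443 CPM in control glands (log2 fold change 1.06 ± 0.18 SE, adjusted p = 0.000167). Gstm2 had 381, 501, 348 and 604 CPM in cKO glands and 233, 204, 263 and 282 CPM in control glands (log2 fold change 0.90 ± 0.20 SE, adjusted p = 0.00179). Slc7a11, the cystine transporter, had 6.57, 6.22, 3.08 and 2.72 CPM in cKO glands and 0.213, 0.25, 0.717 and 0.526 CPM in control glands (log2 fold change 3.47 ± 0.65 SE, adjusted p = 0.000414). All cKO glands lay above all controls in these 3 genes, and the values of Slc7a11 in control glands rest on few counts. Gpx1, a glutathione peroxidase, and Prdx1, a peroxiredoxin, rose without overlap (log2 fold change 0.55 ± 0.11 and 0.47 ± 0.14 SE, adjusted p = 0.000769 and 0.0197), but were not called with the number range as a covariate (adjusted p = 0.102 and 0.0734). The lower gene was Gsta3, a glutathione transferase of the alpha class, with 2.99, 3.22, 1.97 and 2.17 CPM in cKO glands and 3.57, 11.1, 7.60 and 2.96 CPM in control glands (log2 fold change -1.28 ± 0.39 SE, adjusted p = 0.0208). Its call ended with that covariate (adjusted p = 0.481) and without cKO replicate 3 or 4 or control replicate 2 or 3 (adjusted p = 0.0612 to 0.134). Among immediate early genes, which respond within minutes to a stimulus or to handling of the animal, 1 of 10 was higher and 1 lower. Atf3, a stress-induced transcription factor, had 22.4, 27.9, 8.53 and 20.5 CPM in cKO glands and 3.67, 3.19, 6.60 and 2.76 CPM in control glands (log2 fold change 2.30 ± 0.47 SE, adjusted p = 0.00107). Nr4a2, an orphan nuclear receptor, had 7.46, 3.72, 5.58 and 10.02 CPM in cKO glands and 13.4, 29, 67 and 9.99 CPM in control glands (log2 fold change -2.16 ± 0.54 SE, adjusted p = 0.0054). Nr4a2 lost its call with that covariate (adjusted p = 0.0548) and without control replicate 3 (adjusted p = 0.0582).

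Of 10 gonad-type genes 1 was lower, where 11.9% of all genes were: Inhba, the activin beta A subunit, with 0.672, 0.555, 0.721 and 1.398 CPM in cKO glands and 5.06, 3.88, 3.08 and 3.22 CPM in control glands (log2 fold change -2.21 ± 0.37 SE, adjusted p = 0.000104). Of 10 hormone receptor genes 1 was lower as well, Nr3c2, the mineralocorticoid receptor (-0.38 ± 0.13 SE, adjusted p = 0.0426). The call ended with the number range as a covariate (adjusted p = 0.261) and without cKO replicate 1, 2, 3 or 4 or control replicate 2, 3 or 4 (adjusted p = 0.067 to 0.172). Neither of the 2 X-zone genes nor any of the 4 Y-linked genes tested was called.

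The 6-week effect was set beside that of the other male ages in the same fit, in which the ages share no library. Library numbers divide by genotype at 6 weeks. At 4 weeks only control replicate 1 shared the lower range with the cKO libraries, and at 9 weeks both genotypes have libraries in each range. Changes of the effect with age, in the medians too, may therefore include a difference between the number ranges. Each age on its own called 19.2% of the genes tested at 4 weeks (6.29% higher and 12.9% lower), 20.1% at 6 weeks and 24.1% at 9 weeks (10.4% higher and 13.6% lower). At 4, 6 and 9 weeks the median log2 fold change was 0.39, 1.22 and 1.57 for the core macrophage genes and 0.22, 1.08 and 1.94 for the lipid-laden macrophage genes. The same medians were -2.54, -3.45 and -2.54 for the granins, -0.15, 0.23 and 0.10 for the endothelial genes and -0.59, -0.25 and 0.02 for the stromal genes. A test of the difference between ages called 1 gene between 6 and 4 weeks (0.00585% of those tested), with 1505 at an unadjusted p under 0.05. This gene was Mmp12, whose log2 fold change was 5.01 at 6 weeks and 0.41 at 4 weeks (difference 4.60 ± 0.73 SE, adjusted p = 0.0361). DESeq2 called 90 genes, 78 of them with the more positive effect at 6 weeks. No gene was called without 6-week cKO replicate 1, 2 or 4 or 6-week control replicate 2, 3 or 4, or without 4-week cKO or control replicate 1, 3 or 4. Between 6 and 9 weeks edgeR called 0 genes, with 2510 at an unadjusted p under 0.05, and DESeq2 called 66, of which 43 had the more positive effect at 6 weeks. With the number range as a covariate edgeR again called 0 genes between 6 and 9 weeks, with 1471 at an unadjusted p under 0.05. Between 6 and 4 weeks it called 1 gene, with 1648 at an unadjusted p under 0.05.

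The effect in males was then compared with that in females of the same age, in a joint fit of 16 libraries. The sexes were counted in separate tables, so only their within-sex contrasts were compared. Library numbers of the males divide by genotype, so a difference between the sexes cannot be told apart from one between the number ranges. In this fit the number range could not serve as a covariate, since only the male controls are in the upper range. The genotype effect differed for 1349 of 17681 genes (7.63%), being more positive in males for 898 (5.08%) and more negative for 451 (2.55%). Endothelial genes stood out by count, with 9 of 13 called more positive in males. Pecam1 had a log2 fold change of 0.69 in males and -0.26 in females (difference 0.94 ± 0.10 SE, adjusted p = 8.06e-05). For Erg it was 0.68 in males and -0.16 in females (difference 0.85 ± 0.18 SE, adjusted p = 0.00891). For Tie1 it was 0.42 in males and -0.36 in females (difference 0.78 ± 0.10 SE, adjusted p = 0.000343). In CPM, Pecam1 averaged 177 ± 12.4 and 110.3 ± 7.20 CPM in male cKO and control glands and 100.2 ± 9.005 and 119.9 ± 3.46 CPM in female cKO and control glands (SD, n = 4 each).

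Of 12 zona glomerulosa genes 3 were called more positive in males, and of 9 hedgehog and capsule genes 3 were called more positive and 1 more negative. Of all genes, 5.08% were called more positive and 2.55% more negative. Rspo3 had a log2 fold change of -2.17 in males and -3.60 in females (difference 1.43 ± 0.26 SE, adjusted p = 0.0043). That of Kcnk9 was -1.89 in males and -3.30 in females (difference 1.41 ± 0.30 SE, adjusted p = 0.0103). That of Agtr1b was -2.39 in males and -3.58 in females (difference 1.18 ± 0.30 SE, adjusted p = 0.0251). For Shh the values were -0.37 in males and -2.34 in females (difference 1.98 ± 0.35 SE, adjusted p = 0.00327). Scube1, which encodes a secreted hedgehog-binding protein, went the other way, with -0.24 in males and 3.04 in females (difference -3.27 ± 0.30 SE, adjusted p = 2.74e-05). For Cyp11b2 the test of the difference did not pass, with -2.92 in males and -3.43 in females (difference 0.50 ± 0.48 SE, adjusted p = 0.582).

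For the macrophage genes the median log2 fold change was 1.22 in males and 0.52 in females over the core list. Over the lipid-laden list it was 1.08 in males and 0.48 in females. The effect was more positive in males for 15 of 16 core and 15 of 16 lipid-laden genes. That difference was called for 1 of 16 and 2 of 16, against 5.08% of all genes called more positive in males. None of the 35 genes of the 3 medulla lists had a called difference between the sexes, where 7.63% of all genes did. Chga, for one, had a log2 fold change of -3.57 in males and -3.77 in females (difference 0.20 ± 0.26 SE, adjusted p = 0.711). Cdkn2a had 0.07 in males and 1.39 in females (difference -1.32 ± 0.34 SE, adjusted p = 0.0248), and C4b -1.32 in males and 0.69 in females (difference -2.01 ± 0.41 SE, adjusted p = 0.00733). Rpsa-ps10 had 5.16 in males and -3.90 in females (difference 9.05 ± 1.61 SE, adjusted p = 0.00341). Aldh1a1 had 4.46 in males and -1.36 in females (difference 5.83 ± 0.86 SE, adjusted p = 0.00108). Gsta3 had negative fold changes in both sexes, of -1.28 in males and -4.72 in females (difference 3.44 ± 0.54 SE, adjusted p = 0.00153). Mgat4c, which encodes a glycosyltransferase, had -3.33 in males and 4.68 in females (difference -8.01 ± 0.79 SE, adjusted p = 5.41e-05).

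**Figure D4:**
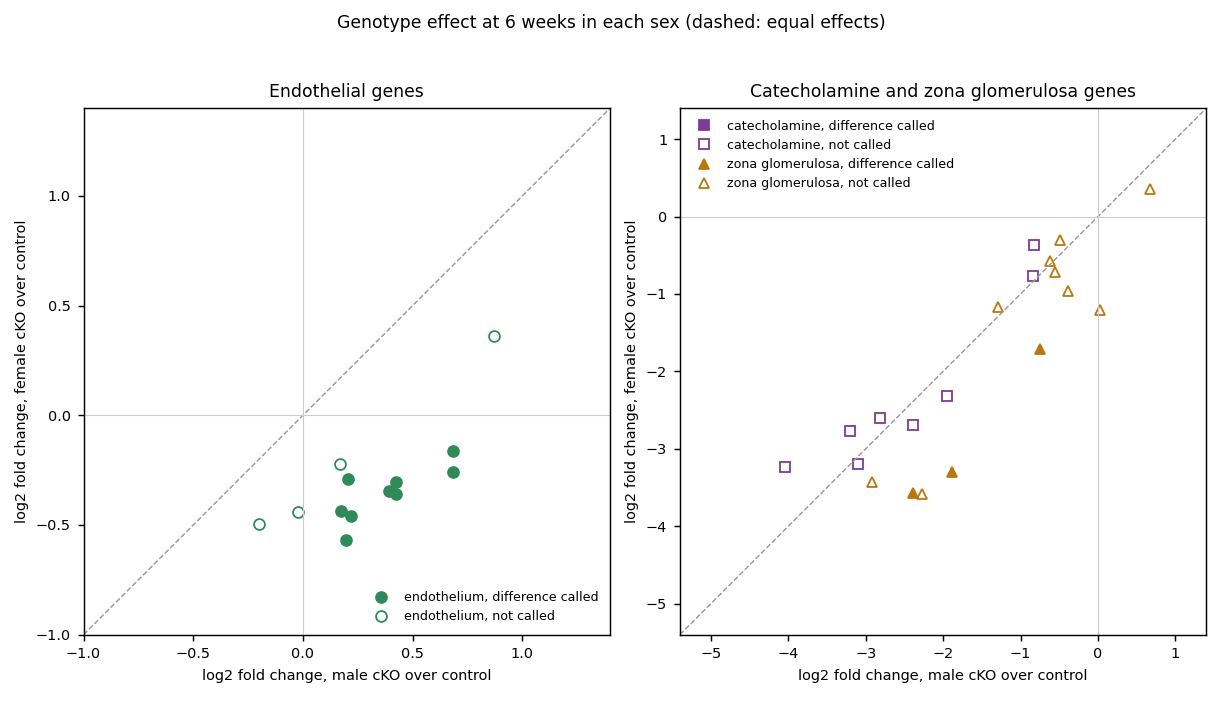
Log2 fold change of cKO over control glands at 6 weeks in males (horizontal axis) against females (vertical axis), each from 4 cKO and 4 control libraries, for the endothelial genes and for the catecholamine and zona glomerulosa genes; the dashed line marks equal effects, and filled points mark a called difference. All 13 endothelial genes lie below the line, with a more positive effect in males, and 9 of them are filled, while no catecholamine gene is.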

How the data were processed

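Poly(A) RNA of whole adrenal glands was sequenced from directional libraries, per the labels' protocols. The deposited values are raw counts of reads per gene that the authors made against GRCm38. Per the submitters' processing notes, the tools were featureCounts, DESeq2 1.30.1, RSEM 1.6.3, STAR 2.7.6a and cutadapt 1.16, without the role of each. The sources used here do not state whether counting used the strand, so reads of a gene and of an antisense gene that overlaps it cannot be told apart.

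Of 55487 gene IDs in the count table of males, 17086 passed edgeR's filter for low counts (minimum count of 10), which looked at all groups of males. The 24 male libraries of 6 groups were fitted together with edgeR 4.0.16 in R 4.3.3 (TMM scaling, quasi-likelihood test, Benjamini-Hochberg adjustment over all genes tested, calls at an adjusted p under 0.05). The biological coefficient of variation was 0.181. The effect of age was tested as a difference of genotype effects in that fit. The effect of sex was tested in a joint fit of 16 libraries and 17681 genes, and 16 female columns of other ages were not used. The standard error (SE) of a log2 fold change was taken as its size divided by the square root of the F statistic. Replicates came from independent mice, per the series' design text. The statistics were tested on simulated data.

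Genes are named by a rule: genes set out in a list, the 10 largest rises and falls among called genes with a mean log2 CPM of at least 1 and no overlap between groups, up to 8 genes per gene list in order of p, the largest differences across age and sex, and markers of other cell types at or near 0. A few genes that the rule names are not reported here. The 38 gene lists and the members were chosen with earlier results of these data known. Gene names and promoter sequences came from the annotation of the files and from RefSeq. Gene coordinates came from GENCODE. Alternatives tried were DESeq2 1.42.0, relative log expression scaling, no low-count filter, a filter of 5 CPM in 4 libraries, a replicate block, the number range of the libraries as a covariate, only the libraries compared, and leaving out each library in turn. A fit without cKO replicate 3 and control replicate 2 was added after seeing the data.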

Additional observations from a re-analysis of the deposited data

Results flagged for a closer look

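In 310 groups of 4 libraries, 1 per named gene, genotype or library measure, 19 held a library far from the other 3. For normally distributed values chance alone would flag about 1 in 20 groups. Counts near 0 are not so distributed, and there 1 value above 0 is enough for a flag, as for Cd5l and Alb in control glands. The share flagged was close to that rate, so single flags may be chance. Of macrophage genes, cKO replicate 3 stood below the other cKO libraries for Il1rn (1.38 CPM, others 5.36 to 5.75 CPM), C1qb (102 CPM, others 161 to 166 CPM) and C1qc (90.9 CPM, others 144 to 152 CPM). Wnt10b stood high in cKO replicate 2 (90.4 CPM, others 1.38 to 14.6 CPM) and in control replicate 2 (1.31 CPM, others 0.197 to 0.319 CPM). In cKO replicate 4, Star was low (5276 CPM, others 7036 to 7269 CPM), as was Ccnd1 (73.9 CPM, others 106 to 111 CPM). In cKO replicate 1, Snap25 was high (7.17 CPM, others 5.44 to 5.59 CPM) and Pdgfrb was low (123 CPM, others 128 to 129 CPM).

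Among the remaining control values, Vgf was far higher in replicate 2 (67.4 CPM, others 3.35 to 9.90 CPM), where Adgre1 was also high (10.7 CPM, others 8.61 to 8.95 CPM) and Gas6 was low (151 CPM, others 199 to 206 CPM). In control replicate 1, Vegfa was low (796 CPM, others 984 to 1014 CPM), Cd3d was high (0.852 CPM, others 0.437 to 0.502 CPM) and Cd5l was at 0.213 CPM with the others at 0. Markers of other tissues stood out as well. The adipocyte gene Adipoq was high in cKO replicate 1 (4.03 CPM, others 0.056 to 0.394 CPM) and in control replicate 1 (3.25 CPM, others 0.312 to 0.591 CPM). The liver gene Alb was high in cKO replicate 2 (45.1 CPM, others 0 to 0.149 CPM) and was at 0.426 CPM in control replicate 1, with the other controls at 0.

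Across ages, the genotype effect of Mmp12 was larger at 6 weeks than at 4 weeks by 4.60 on the log2 scale. Between the sexes at 6 weeks, the test of the difference passed for 24 named genes, and the values that follow are male minus female log2 fold changes. Of endothelial and pericyte genes, these were 0.94 for Pecam1, 0.85 for Erg, 0.78 for Tie1, 0.74 for Cdh5, 0.73 for Esam and 0.52 for Pdgfrb. Of Wnt, hedgehog and zona glomerulosa genes, they were 1.98 for Shh, 1.54 for Hhip, 1.43 for Rspo3, 1.41 for Kcnk9, 1.18 for Agtr1b, 1.05 for Apcdd1, 0.97 for Smoc2 and 0.84 for Nkd1. Of macrophage and secreted-factor genes, they were 0.98 for Plau, 0.60 for Mrc1 and 0.51 for Stab1. The other positive differences were 9.05 for Rpsa-ps10, 5.83 for Aldh1a1 and 3.44 for Gsta3. Negative differences were -8.01 for Mgat4c, -3.27 for Scube1, -2.01 for C4b and -1.32 for Cdkn2a.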

How the results depend on the processing

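The 6-week comparison of cKO with control males called 3435 genes, and between 2769 and 3771 under DESeq2, relative log expression scaling, no low-count filter, the filter of 5 CPM, the replicate block and a fit of only the libraries compared. The filter of 5 CPM, which removes low genes, turned the split to 1465 higher and 1304 lower (52.9% higher, against 40.7%). With the number range of the libraries as a covariate the count was 1613 (488 higher and 1125 lower), 44.7% of the first calls were shared, and 32 of 130 called named genes lost their call; the cause was not tested. Leaving out 1 library gave 2806 to 3365 calls and ended 6 to 11 of the 130, and leaving out cKO replicate 3 and control replicate 2 together gave 2965 and ended 13. The change of the effect between 6 and 4 weeks was called for 1 gene, against 90 with DESeq2, 2 with no low-count filter, 0 with the replicate block, 8 in a fit of only the groups compared, and 0 to 5 with 1 library left out (5 without cKO replicate 3). The change between 6 and 9 weeks was called for 0 genes with edgeR (2510 at an unadjusted p under 0.05), 66 with DESeq2, and 0 to 21 with 1 library left out (21 without 9-week cKO replicate 1). The difference between the sexes was called for 1349 genes, between 1035 and 1986 under DESeq2, relative log expression scaling, no low-count filter, the filter of 5 CPM and the replicate block, and 904 to 1519 with 1 library left out; the filter of 5 CPM made 79.5% of them positive, against 66.6%. No fit of the difference between the sexes used the number range as a covariate. Replicate numbers did not pair the samples: the correlations of same-numbered cKO and control libraries were 0.02, 0.01, -0.12 and -0.06. The replicate block called 3311 genes at 6 weeks, Star among them, and 1035 for the difference between the sexes. Genes under about 1 CPM rest on few counts, and differences among them may not be detectable at this depth.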
